A study of Mus musculus with 40 samples.

Results

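Transcripts of 39 skeletal muscle genes were followed in mouse subcutaneous white adipose tissue, the fat depot under the skin. The genes were picked by symbol from the count table: 13 genes of fast fibres, 6 of slow fibres, 9 of the sarcomere shared by fibre types, 7 of energy metabolism and 4 of calcium handling. All 39 were among the 34843 symbols of the table, and 24 of them were among the 15807 genes with enough counts to be tested. The 40 libraries formed 5 groups of 8. These were mice kept on the diet labelled ND, mice kept on HFD, HFD-fed mice given semaglutide (an agonist of the GLP-1 receptor), HFD-fed mice given tirzepatide (an agonist of the GIP and GLP-1 receptors), and HFD-fed mice moved to ND, called the diet switch here. The labels name no strain, sex, age, dose or duration, and do not say whether each library is 1 animal. The p-values therefore measure the spread between these libraries. The kit counts transcript ends, so a level is given as CPM, the count scaled to the library's total, and does not grow with transcript length.

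Skeletal muscle fibres contract through sarcomeres, in which myosin heavy chains pull on actin filaments and troponins set the response to calcium. Fast fibres carry the heavy chains Myh1, Myh2 and Myh4, the calcium pump Atp2a1 and the calcium buffer Pvalb, whereas slow fibres carry Myh7 and Myl2 with slow troponins and are rich in myoglobin. Mature adipocytes do not build sarcomeres, and in mice the subcutaneous fat lies next to a thin sheet of skin muscle. In tissue RNA, fewer cells of a type and less RNA per cell cannot be told apart, and where the muscle transcripts came from was not tested.

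The promoters of Myh4, its neighbour Myh1, which was called in 4 comparisons, and Ckm are shown with that of the slow myosin Myh7. Each runs from 250 bases before to 50 bases after the start (RefSeq, GRCm38.p6, 5′ to 3′). Capitals mark CAGCTG, an E box of the kind bound by myogenic factors, and CTANNNNTA, a loose MEF2-like motif, each searched on both strands.
Myh4 promoter, chr11:67237562-67237861, plus strand: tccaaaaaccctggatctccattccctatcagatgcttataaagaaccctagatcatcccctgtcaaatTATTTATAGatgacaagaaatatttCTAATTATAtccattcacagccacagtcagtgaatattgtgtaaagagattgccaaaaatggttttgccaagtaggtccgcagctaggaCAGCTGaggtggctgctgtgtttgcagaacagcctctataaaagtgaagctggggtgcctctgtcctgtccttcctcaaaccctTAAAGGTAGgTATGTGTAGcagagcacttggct
Myh1 promoter, chr11:67199852-67200151, plus strand: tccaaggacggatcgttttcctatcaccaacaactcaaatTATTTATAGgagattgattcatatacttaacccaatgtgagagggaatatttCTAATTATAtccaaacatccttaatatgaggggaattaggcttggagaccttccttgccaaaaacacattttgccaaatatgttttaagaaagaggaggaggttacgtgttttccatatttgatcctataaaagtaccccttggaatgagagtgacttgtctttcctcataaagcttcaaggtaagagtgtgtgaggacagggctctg
Ckm promoter, chr7:19410844-19411143, plus strand: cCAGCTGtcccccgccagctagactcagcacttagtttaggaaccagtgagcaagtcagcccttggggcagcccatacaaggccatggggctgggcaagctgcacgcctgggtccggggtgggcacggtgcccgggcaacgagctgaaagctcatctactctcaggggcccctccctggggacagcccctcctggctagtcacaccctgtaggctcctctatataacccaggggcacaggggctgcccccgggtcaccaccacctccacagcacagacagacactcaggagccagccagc
Myh7 promoter, chr14:54994577-54994876, minus strand: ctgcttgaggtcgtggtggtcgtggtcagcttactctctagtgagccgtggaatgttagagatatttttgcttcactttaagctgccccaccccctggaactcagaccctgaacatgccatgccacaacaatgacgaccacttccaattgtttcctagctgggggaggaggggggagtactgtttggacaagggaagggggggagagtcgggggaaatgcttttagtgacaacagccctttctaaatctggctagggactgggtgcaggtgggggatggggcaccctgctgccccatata
The Myh4 window held 1 CAGCTG and 4 CTANNNNTA matches, the Myh1 window 2 CTANNNNTA matches, the Ckm window 1 CAGCTG match, and the Myh7 window neither. Of the 39 genes, 31 had a promoter in the RefSeq table. CAGCTG occurred in 19 of their 38 windows, against 16.3% of 32851 windows of all genes, and CTANNNNTA in 17 of 38, against 21.0%. A match describes letters in a window and is not a binding site, and its bearing on the levels in these libraries was not tested.

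Totals ran from 2115471 to 7445548 counts per library. The adipocyte hormone gene Adipoq was between 1281 and 3311 CPM in every library. The cardiac myosin Myh6 had 3 counts in all 40 libraries together, and the keratinocyte gene Krt14 had 36. The B cell gene Cd79a reached 176 CPM in the ND group and 236 CPM in the semaglutide group but no more than 2.57 CPM in the other 3 groups, and its part in the muscle results was not tested. HFD library 4 stood apart from the other 7 HFD libraries in muscle content. Counts of called muscle genes, and the fitted changes discussed for the HFD comparisons, are also given without it.

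The muscle genes held a small share of the counts, and that share differed widely between libraries of one group. Over the 8 ND libraries the 39 genes held 0.0174% of counts at the lowest, 0.0413% at the median and 0.709% at the highest. In HFD the lowest, median and highest were 0.0107%, 0.0185% and 0.169%. Semaglutide libraries ran from 0.0106% through a median of 0.0169% to 0.0767%. Tirzepatide libraries ran from 0.0166% through 0.156% to 0.614%, the highest median of the 5 groups. Diet switch libraries ran from 0.0152% through 0.0407% to 0.673%. The widest 95% Wilson interval on a library's share was ± 0.00884 percentage points, which covers counting error only. In each group the gap between the lowest and highest library was far larger than that. Libraries with close shares, such as HFD libraries 1 and 3, had overlapping intervals.

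In 11 libraries the share was over 0.1%, and a gap from 0.125% to 0.0809% separated them from the other 29. They were ND libraries 6 and 8, HFD library 4, tirzepatide libraries 1, 2, 4, 5 and 7, and diet switch libraries 1, 3 and 6. No semaglutide library was among them. The group means were 0.203% ± 0.307 (SD, n = 8) in ND, 0.0354% ± 0.0539 in HFD, 0.0296% ± 0.0276 in semaglutide, 0.209% ± 0.212 in tirzepatide and 0.162% ± 0.228 in the diet switch. The SD was larger than the mean in all groups but semaglutide, where it was nearly as large. Without library 4 the HFD mean was 0.0164%. The ND mean was 0.134% without library 6 and 0.131% without library 8, and the diet switch mean was 0.0893% without library 6. The ranges of all 5 groups overlapped, and no test was made on this sum over chosen genes.

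**Figure D1:**
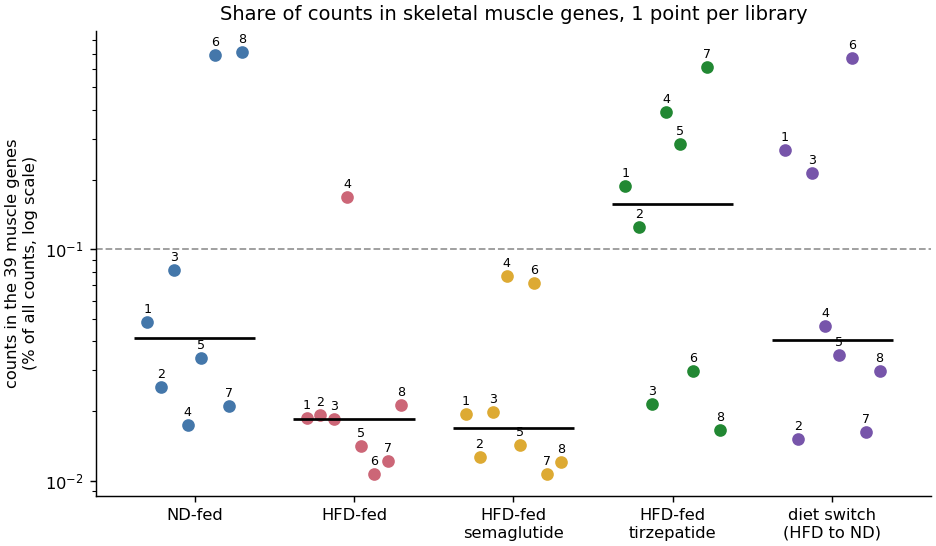
Share of all counts held by the 39 muscle genes in each library (percent, log axis), 1 point per library with its number, grouped by treatment. Black bars are group medians and the dashed line is 0.1%. The 11 libraries above the line lie between 0.125% and 0.709%, and 5 of them are tirzepatide libraries.

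Of the 189040 counts of the 39 genes over all libraries, the fast fibre genes held 87282, the shared sarcomere genes 72461, the energy genes 25717, the calcium genes 3336 and the slow genes 244. Myh4, the heavy chain of the fastest fibres, held 29087 of the 31831 counts of the 3 fast heavy chains (91.4%). Its level in ND libraries had a lowest, median and highest value of 7.99, 39.3 and 1307 CPM. In HFD these were 2.46, 5.68 and 230 CPM, and in semaglutide 2.37, 6.40 and 124 CPM. In tirzepatide libraries Myh4 ran from 2.82 through 253 to 1151 CPM, and in the diet switch from 2.38 through 38.8 to 1149 CPM. Every group thus had libraries with Myh4 under 10 CPM and libraries with over 100 CPM.

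Myh1, another fast heavy chain, was lower throughout. Its lowest, median and highest values were 0.749, 2.47 and 61.6 CPM in ND, 0, 0.328 and 3.02 CPM in HFD, and 0, 0.638 and 8.71 CPM in semaglutide. In tirzepatide they were 0.403, 6.53 and 97.7 CPM, and in the diet switch 0.236, 3.5 and 29 CPM. Myh2 had highest values of 53.2 CPM in ND, 4.22 CPM in HFD, 6.61 CPM in semaglutide, 50.5 CPM in tirzepatide and 28.7 CPM in the diet switch. The 3 heavy chain genes lie side by side on chromosome 11 (mm10; Myh2 67171027-67197517, Myh1 67200052-67224575, Myh4 67238029-67260446, all on the plus strand) and belong to 1 family. How reads were divided between these related neighbours was not tested, so their split is uncertain.

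Pvalb, which binds calcium in fast fibres, had medians of 20.3 CPM in ND, 6.48 CPM in HFD, 2.69 CPM in semaglutide, 79.0 CPM in tirzepatide and 13.2 CPM in the diet switch. Mylpf, a regulatory light chain of fast myosin, had medians of 12.7, 2.79, 1.71, 39.2 and 14.3 CPM in the same order. Tnnt3, fast troponin T, followed with 12.8, 1.94, 1.98, 55.8 and 13.3 CPM. For these 3 genes tirzepatide had the highest median and HFD or semaglutide the lowest, as for the summed share. Atp2a1, the calcium pump of fast fibres, had medians of 4.13, 0.197, 1.21, 13.9 and 4.75 CPM, with 3 HFD libraries at 0 counts. Fast troponin I (Tnni2) had medians of 8.99, 1.59, 1.60, 37.5 and 5.24 CPM. The Z-disc protein Actn3 had medians of 3.96, 0.390, 0.501, 19.2 and 4.22 CPM. Mybpc2, fast myosin-binding protein C, and Myoz1, a calcineurin-binding Z-disc protein, reached 39 and 53.5 CPM and were at 0 counts in 10 and 13 libraries. Tnnc2, fast troponin C, was the 1 fast gene not tested, with 131 counts in all and 24 libraries at 0.

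Myl1, the fast essential light chain, behaved differently at the low end. It was never below 27.6 CPM in any library and reached 415 CPM, a 15.1-fold range, while Mylpf ranged 624-fold and Myh4 552-fold. The count ratio of Myl1 to Mylpf was 1.02 in tirzepatide library 7, which was rich in muscle counts, and 107.5 in semaglutide library 8, which was poor in them. The ratio of 107.5 and the low end of the Mylpf range rest on 2 Mylpf counts, so both are imprecise. Acta1, skeletal muscle actin, was never below 7.56 CPM, with a 168-fold range, and its count ratio to Ckm ran from 3.19 in ND library 8 to 80.4 in HFD library 2. The ratio of 80.4 rests on 5 Ckm counts. Together Myl1 and Acta1 held from 17.7% of the muscle counts, in tirzepatide library 4, to 75.0%, in diet switch library 7. Without these 2 genes the group medians of the share fell to 0.0278% in ND, 0.00538% in HFD, 0.00669% in semaglutide, 0.110% in tirzepatide and 0.0242% in the diet switch.

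Slow fibre genes had few counts. Over all 40 libraries the 13 fast genes had 87282 counts and the 6 slow genes 244. Myh7, the slow heavy chain (mm10 chromosome 14, 54970684-54994626, minus strand), had 1 count, in tirzepatide library 5. Myl2, the slow regulatory light chain, had 2 counts, both in 1 ND library. Exons of Myh7, Myl2 and Myl3, and of Mb and Tnnc2 among the other low genes, overlap exons of genes on the other strand, and how reads there were counted was not tested. A library at 0 allows up to 3 counts, which is 0.403 CPM in the deepest library and 1.42 CPM in the shallowest.

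The other slow genes were detected at a few counts per library. Tnnt1, slow troponin T, had 92 counts, with group medians between 0 and 0.660 CPM and a highest value of 3.00 CPM in ND library 2, a library poor in muscle counts. Tnnc1, the troponin C of slow and cardiac muscle, had 86 counts with group medians between 0.120 and 0.657 CPM. Tnni1, slow troponin I, had 40 counts and was at 0 in all 8 diet switch libraries. Myl3, the slow essential light chain, had 23 counts. None of the 6 slow genes passed the filter on low counts, so none was tested. The summed level of the 6 had group medians from 1.27 to 2.10 CPM, while that of the 13 fast genes had medians from 70.7 CPM in HFD to 681 CPM in tirzepatide.

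Fast chains made up all heavy chain counts in 4 groups and 99.99% in tirzepatide, as the mean over the 34 libraries with at least 20 counts of Myh1, Myh2, Myh4 and Myh7. Among the 11 libraries with at least 500 such counts, Myh4 held between 90.8% and 97.0% in 10. Tirzepatide library 4 was the exception. There Myh4 held 72.8% of 2021 counts (95% Wilson interval 70.9 to 74.7%), Myh1 17.9% and Myh2 9.25%. In libraries with few heavy chain counts the split was imprecise, as in semaglutide library 2, with 52.1% of 48 counts (38.3 to 65.5%).

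**Figure D2:**
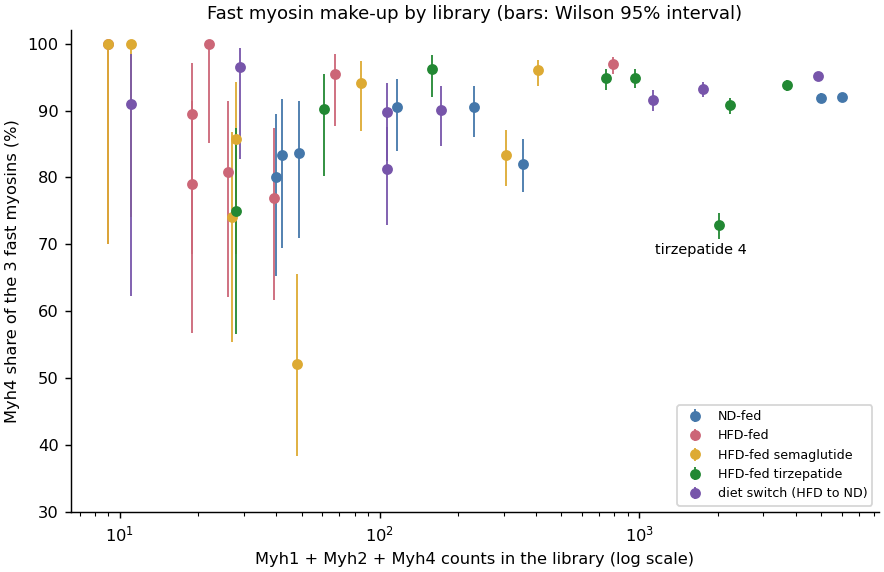
Share of Myh4 among Myh1, Myh2 and Myh4 counts (percent) against the number of those counts in the library (log axis), 1 point per library coloured by group, with 95% Wilson intervals. Tirzepatide library 4 lies at 72.8%, below the 10 other libraries with 500 or more counts, which lie between 90.8% and 97.0%.

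Tirzepatide library 4 also differed in other muscle genes. Of the 15 libraries with at least 2000 muscle counts, it had 9 of the 39 genes above and 4 below the range of the other 14, as shares of the library's muscle counts. The next most different was HFD library 4, with 4 above and 5 below. Ttn, the giant spring protein of the sarcomere, held 27.8% of the muscle counts in tirzepatide library 4 and at most 16.9% in those other 14. Atp2a1 held 3.98% against at most 2.18%. Pvalb was low, with 2.44% against at least 4.74%, and so was Acta1, with 12% against at least 15.9%. Sln, a small peptide that inhibits the calcium pump, had 64 counts (17.3 CPM), all of them in that library. Actn2, a Z-disc actinin, had 103 of its 195 counts there and Mybpc1, slow myosin-binding protein C, 101 of its 219. The 6 slow genes had 8 counts there, with 4 of Tnnt1, 3 of Tnni1, 1 of Tnnc1 and none of Myh7, Myl2 or Myl3.

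Genes outside the 39 were high in the same library. Of 94 other muscle, developmental and cardiac genes listed, 17 had their highest level in tirzepatide library 4. The 4 named here were chosen after their values were seen. Csrp3, a Z-disc protein, stood at 9.45 CPM against 1.43 CPM in the next library. Lmod2, which lengthens thin filaments, stood at 6.75 against 1.80 CPM, and Myh13, the heavy chain known from eye muscles, at 8.91 against 1.80 CPM. Mstn, the secreted inhibitor of muscle growth, had 25 of its 91 counts there. Each of these values comes from 1 library and has no replicate.

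Among the shared sarcomere genes, Acta1 and Ttn were the most abundant. Exons of 18 of the 39 genes, Ttn, Neb and Ckm among them, overlap exons of a gene on the other strand, and the labels do not say whether counting used the strand. Acta1 had a lowest, median and highest level of 46.3, 116 and 1125 CPM in ND, 19.0, 54.9 and 414 CPM in HFD, and 7.56, 26.6 and 162 CPM in semaglutide. In tirzepatide it had 12.1, 347 and 983 CPM, and in the diet switch 27.4, 64.2 and 1273 CPM. Ttn medians were 80.1 CPM in ND, 6.73 CPM in HFD, 17.4 CPM in semaglutide, 163 CPM in tirzepatide and 72.2 CPM in the diet switch. Neb, which runs along the thin filament, had medians of 16.5, 4.29, 4.51, 39.5 and 17.5 CPM in the same order. Both filament genes were lowest at the median in HFD and highest in tirzepatide. Over all libraries Tcap, which caps titin at the Z-disc, reached 86.6 CPM, Ldb3 69.1 CPM and Xirp2 85.6 CPM, whereas no group median of Actn2, Smpx or Mybpc1 was over 1.90 CPM.

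Ckm, muscle creatine kinase, was the clearest energy gene. Its lowest, median and highest levels were 1.39, 11.8 and 352 CPM in ND, 0.836, 1.62 and 82.3 CPM in HFD, and 0.481, 1.42 and 36.1 CPM in semaglutide. In tirzepatide they were 1.61, 69.5 and 264 CPM, and in the diet switch 1.19, 8.09 and 385 CPM. The second highest HFD library had only 3.41 CPM, so the HFD maximum came from library 4 alone. Pygm, which breaks down muscle glycogen, was more abundant, with medians of 31.7, 9.31, 10.2, 149 and 22.2 CPM in the group order above. The glycolytic enzymes Eno3 and Pgam2 reached 75.0 and 30.9 CPM. Ampd1, which deaminates AMP in muscle, had 185 counts. Ckmt2, the mitochondrial creatine kinase, had 128 counts and was at 0 in 25 libraries. Mb, the oxygen store of oxidative fibres, had 1 count in all. Of the calcium genes, Ryr1, the release channel, had medians of 5.35, 3.05, 3.33, 17.8 and 5.81 CPM, while Cacna1s, the voltage sensor of the T-tubule, had 34 counts in all. Casq1, the calcium store protein of fast fibres, had medians from 1.41 CPM in HFD to 6.87 CPM in tirzepatide.

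**Figure D3:**
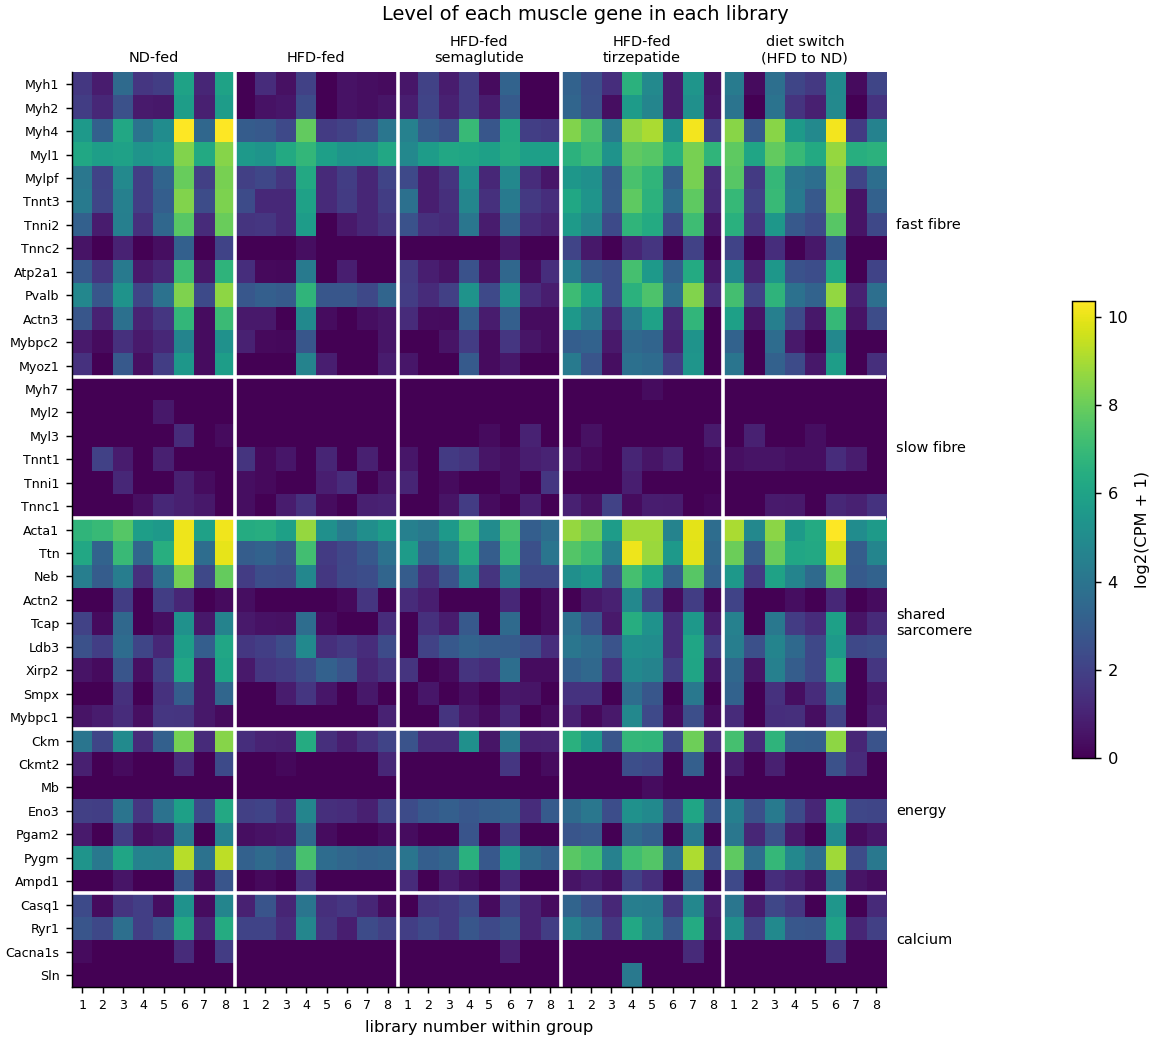
Level of the 39 muscle genes (rows, by role) in the 40 libraries (columns, by group), as log2(CPM + 1). The columns of the 11 libraries over 0.1% are bright for fast, sarcomere and energy genes together, and the slow rows and Mb stay dark.

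Within groups the tested muscle genes rose and fell together. After each group's mean was subtracted, the correlation of a gene's log2 CPM with the mean log2 CPM of the muscle genes other than itself ran from 0.83 for Myl1 to 0.98 for Mylpf over the 40 libraries. These values share libraries and depth. Of the 15783 tested genes outside the list, 69 (0.437%) had a correlation over 0.5 and 9 one under -0.5. The closest were Myh8, the perinatal heavy chain next to Myh4 on chromosome 11 (0.97), Tpm1, a tropomyosin (0.95), and Cox6a2, the muscle form of a respiratory chain subunit (0.95). The next were Jsrp1, Klhl31, Nctc1, Mylk2, Eef1a2, Hjv, Tpm2, Tmem233, Mypn, Myom2, Hrc and Mylk4, down to 0.89.

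Other muscle genes followed only in part. Correlations over 0.5 were seen for 9 of 14 tested genes of sarcomere structure, 7 of 12 of calcium handling and membrane, and 5 of 13 of muscle metabolism. None of 7 myogenic regulators, 10 adipocyte genes, 6 brown and beige fat genes or 2 cardiac genes exceeded 0.5. Of 9 smooth muscle genes, Des alone did, which skeletal muscle also expresses. Myod1 and Myog, which drive the muscle program, had 23 and 12 counts in all, and Pax7, the marker of muscle stem cells, had 11. The adipocyte genes had a median correlation of -0.07.

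HFD against ND asks what the diet changed. In this comparison 3 of the 24 tested muscle genes were lower in HFD and none was higher, where 1.68% of all tested genes were called lower (edgeR quasi-likelihood test, Benjamini-Hochberg adjusted p under 0.05). Myh1 fell by 4.62 on the log2 scale (SE 1.23, adjusted p = 0.0199), Myh2 by 4.24 (SE 1.23, adjusted p = 0.0370) and Neb by 3.42 (SE 0.997, adjusted p = 0.0393). All 24 fitted changes were negative, with a median of -2.78, against -0.04 over all genes, and 20 had an unadjusted p under 0.05, where 8.5% of all genes were lower at that level. Myh4 (-3.45, SE 1.33, adjusted p = 0.150), Ttn (-3.72, SE 1.17, adjusted p = 0.0624), Ckm (-3.04, SE 1.28, adjusted p = 0.196) and Acta1 (-1.91, SE 0.916, adjusted p = 0.277) did not pass. For none of the 24 were the 2 groups free of overlap, as they were for 1.65% of all tested genes.

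Single libraries decided this count. HFD library 4 was picked for its high level of these genes, so a larger fall without it follows from that choice. Without HFD library 4 it was 17, with changes of -5.81 for Myh4 (SE 1.49, edgeR adjusted p = 0.0158), -5.78 for Ckm (SE 1.53, adjusted p = 0.0193), -5.45 for Ttn (SE 1.28, adjusted p = 0.00723) and -2.76 for Acta1 (SE 0.961, adjusted p = 0.0995). Without ND library 4 it was 5. Without ND library 6 or ND library 8, the 2 with the highest muscle share, it was 0, and without any one of the other 7 HFD libraries it was 1. Leaving out 1 library at a time moved the Myh1 change between -5.26 and -3.98.

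Semaglutide against HFD showed no called muscle gene. By edgeR 0 of 24 passed, where 4.15% of all tested genes were called in either direction. At an unadjusted p under 0.05 there were also 0, against 19.6% of all tested genes. DESeq2 and limma-voom also called 0. The fitted changes ran from -1.73 for Myoz1 to 1.23 for Myh1, with a median of -0.39. The direction depended on the summary used. The fitted changes were negative for 18 of 24 genes, while the group median in CPM was higher in semaglutide than in HFD for 18 of 24. Since HFD library 4 was picked for its high level of these genes, an upward shift without it follows from that choice. Without HFD library 4 the fitted changes were positive for 20 of 24 genes, with a median of 1.57, and 14 genes changed sign. Myh4 then went from -0.22 to 2.12 (SE 1.36, edgeR adjusted p = 0.412) and Ckm from -0.63 to 2.11 (SE 1.59, adjusted p = 0.502). The call count without that library was also 0, adjusted or not. With all libraries the SE ran from 0.436 for Myl1 to 1.52 for Actn3, so these data leave wide room for a change in either direction.

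In tirzepatide against HFD, heavy chain, sarcomere and calcium pump genes were called. Of the 24, 6 were higher and none lower, where 9.79% of all tested genes were called higher. Myh1 rose by 4.74 on the log2 scale (SE 1.22, edgeR adjusted p = 0.00565), Myh2 by 4.14 (SE 1.23, adjusted p = 0.0152) and Atp2a1 by 3.94 (SE 1.24, adjusted p = 0.0218). Ttn rose by 3.76 (SE 1.17, adjusted p = 0.0209), Tcap by 3.55 (SE 1.23, adjusted p = 0.0373) and Neb by 3.03 (SE 0.989, adjusted p = 0.0269). The median change of the 24 was 2.69, against 0.03 over all genes. All 24 changes were positive and 19 had an unadjusted p under 0.05, where 16.9% of all genes were higher at that level. Myh4 (3.16, SE 1.31, adjusted p = 0.0833), Pvalb (2.28, SE 1.13, adjusted p = 0.154) and Acta1 (1.67, SE 0.910, adjusted p = 0.198) did not pass.

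The count was 22 without HFD library 4, 10 without tirzepatide library 8 and 2 without tirzepatide library 4. HFD library 4 was picked for its high level of these genes, so larger rises and more calls without it follow from that choice. Without HFD library 4 the change was 5.52 for Myh4 (SE 1.48, edgeR adjusted p = 0.00822), 3.75 for Pvalb (SE 1.24, adjusted p = 0.0311) and 2.51 for Acta1 (SE 0.952, adjusted p = 0.0595). Without tirzepatide library 4 Atp2a1, Ttn, Neb and Tcap lost their calls, with adjusted p = 0.0736 for Atp2a1 and 0.0501 for Ttn in edgeR. Neb lost its call in 4 of the 40 omissions. Myh1 and Myh2 stayed called whichever 1 library was left out, with Myh1 between 3.81 and 5.38. Both lost their call under limma-voom with sample quality weights and with muscle content as a covariate. Tcap lost its call in 10 of the 40 omissions. Tirzepatide library 4 is also the one with the unusual make-up of muscle genes given above.

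The diet switch against HFD gave 2 called muscle genes, both higher, where 12.8% of all tested genes were called higher. Myl1 rose by 1.33 on the log2 scale (SE 0.438, edgeR adjusted p = 0.0245) and Myh1 by 3.42 (SE 1.24, adjusted p = 0.0420). The median of the 24 changes was 2.54, against 0.03 over all genes. All 24 were positive and 14 had an unadjusted p under 0.05, where 19.4% of all genes were higher at that level. Ttn (2.83, SE 1.13, adjusted p = 0.0652) and Ckm (2.78, SE 1.27, adjusted p = 0.107) did not pass. Because HFD library 4 was picked for its high level of these genes, larger rises and more calls without it follow from that choice. The count was 21 without HFD library 4, where the change was 4.57 for Ttn (SE 1.24, edgeR adjusted p = 0.00814) and 5.53 for Ckm (SE 1.52, adjusted p = 0.00888). It was 6 without diet switch library 2. It was 0 without HFD library 2 or diet switch library 3 or 6, and 1 without diet switch library 1 or any one of HFD libraries 1, 3, 5, 6, 7 and 8.

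Tirzepatide against semaglutide compares the 2 drugs. Of the 24 tested muscle genes 4 were higher with tirzepatide and none lower, where 4.11% of all tested genes were called higher. Atp2a1 was higher by 3.95 on the log2 scale (SE 1.23, edgeR adjusted p = 0.0370), Myh1 by 3.51 (SE 1.09, adjusted p = 0.0368), Ryr1 by 2.94 (SE 0.932, adjusted p = 0.0398) and Myl1 by 1.33 (SE 0.439, adjusted p = 0.0476). The median of the 24 changes was 3.16, against -0.01 over all genes. All were positive and 23 had an unadjusted p under 0.05, where 11.6% of all genes were higher at that level. The largest adjusted p among the 24 was 0.206, for Pgam2.

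The count moved with single libraries here too. It was 8 without semaglutide library 6, and 7 without semaglutide library 4 or tirzepatide library 8. It was 0 without tirzepatide library 4 or 7 or semaglutide library 1, and 1 without any one of semaglutide libraries 2, 3, 5, 7 and 8. The comparisons with HFD share the HFD libraries and those with tirzepatide its 8 libraries, so their changes are not independent of each other.

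**Figure D4:**
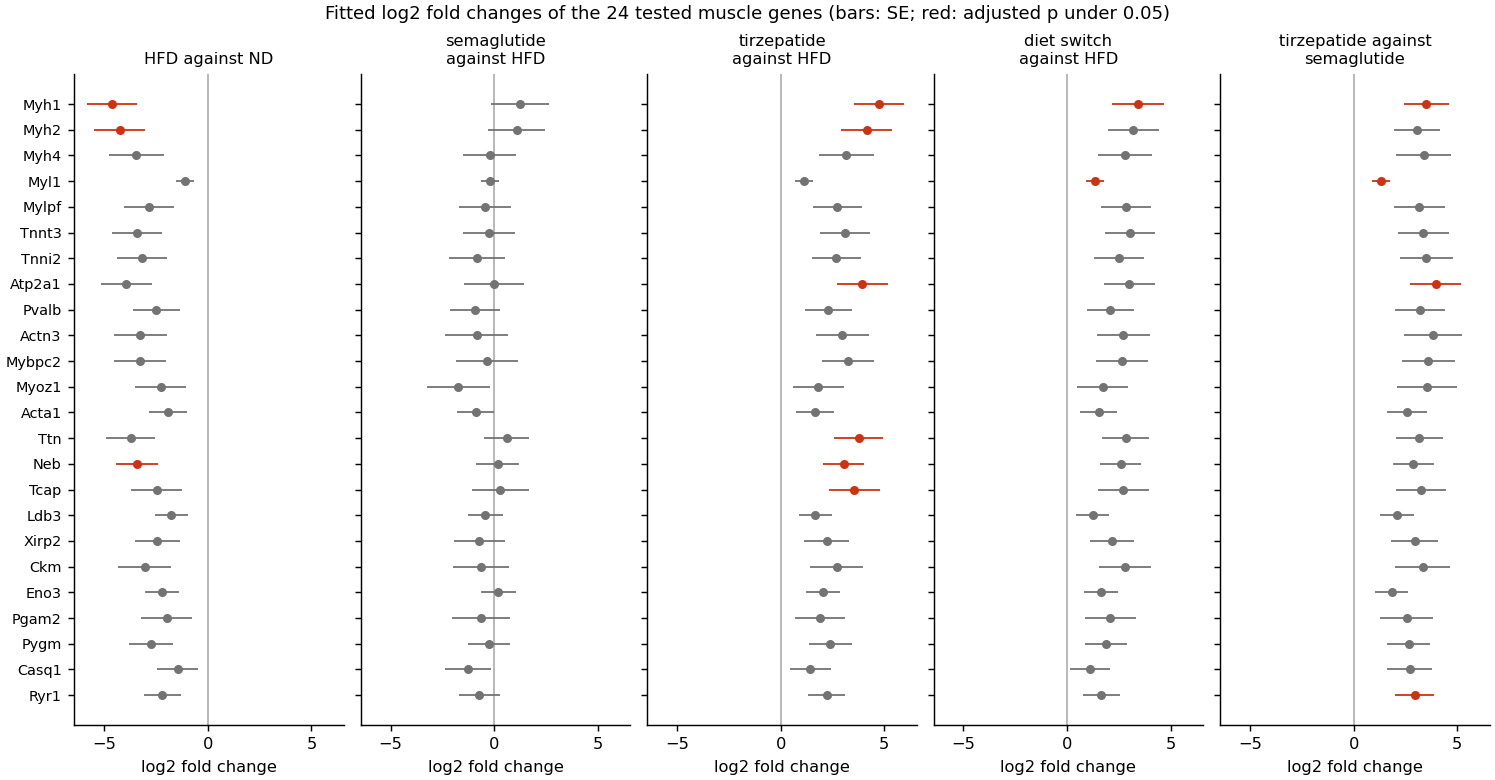
Fitted log2 fold change with its SE for the 24 tested muscle genes (rows, by role) in the 5 comparisons (panels). Red points have an edgeR adjusted p under 0.05. All 24 points lie left of 0 in HFD against ND and right of 0 in 3 panels, and the semaglutide panel straddles 0.

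The muscle share was also set against the comparisons of all other genes. The counts held by muscle genes hardly bore on library scaling. With library sizes and TMM factors computed without the 39 genes, the calls over the whole table were 711, 653, 3252, 3755 and 1580, against 712, 656, 3246, 3759 and 1584 with them, in the order of the comparisons above. Of the 15783 tested genes outside the list, 0.437% had a within-group correlation with muscle content over 0.5. Among the called genes outside the list the number was 4 of 709 (0.564%) in HFD against ND. In semaglutide against HFD it was 0 of 656, and in tirzepatide against HFD 10 of 3240 (0.309%). It was 7 of 3757 (0.186%) in the diet switch against HFD and 14 of 1580 (0.886%) in tirzepatide against semaglutide.

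The number of calls was lower once muscle content entered the model. With the mean log2 CPM of the muscle genes as a covariate, edgeR called 602 genes in HFD against ND, of which 566 were also called without it, and 643 in semaglutide against HFD, of which 632 were. It called 2255 in tirzepatide against HFD (2193 shared) and 3142 in the diet switch against HFD (3057 shared). In tirzepatide against semaglutide the number fell from 1584 to 725, of which 711 were shared. Of the 873 genes that lost their call there, 4 were muscle genes of the list and 14 were other genes with a correlation over 0.5. Muscle content differed between these 2 groups, with 5 of 8 tirzepatide and no semaglutide libraries over 0.1%. In such a fit the parts of muscle content and of treatment cannot be told apart.

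Without the 11 libraries over 0.1% the calls were 531, 565, 1145, 2579 and 225 in the same order. This leaves 3 tirzepatide libraries against 8 of semaglutide, so fewer samples were compared as well. Of the 225 genes in tirzepatide against semaglutide, 214 were also called with all libraries. The share called higher was 72% there, against 41.0% of 1584 with all libraries.

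**Figure D5:**
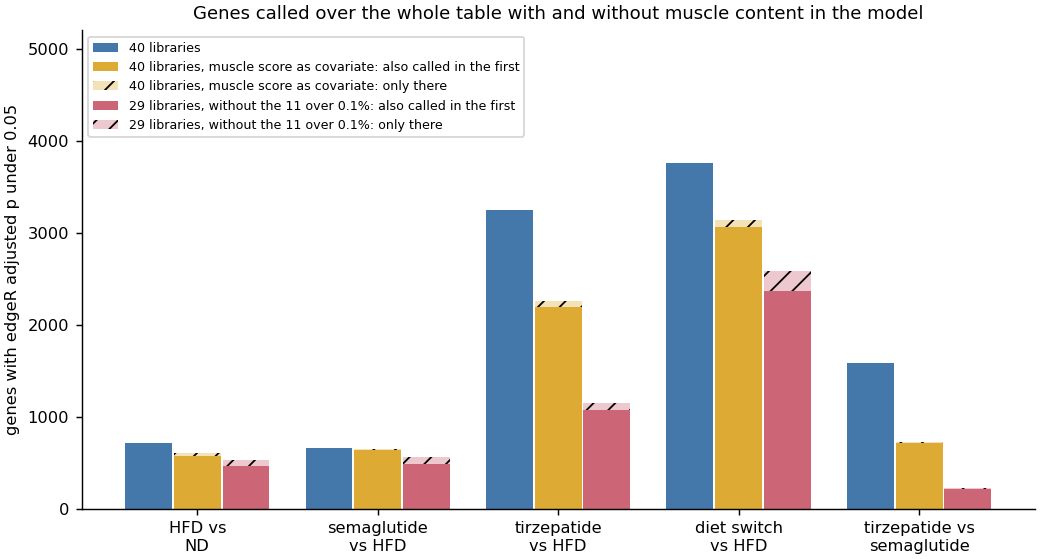
Number of genes over the whole table with an edgeR adjusted p under 0.05 in each comparison, for all 40 libraries, with the muscle score as a covariate, and without the 11 libraries over 0.1%. Solid parts were also called in the first fit and hatched parts were not. The largest relative drop is in tirzepatide against semaglutide, from 1584 to 725 and 225.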

How the data were processed

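RNA from subcutaneous white fat of 40 mouse samples was made into QuantSeq 3′-end libraries, per the labels' protocols. The authors deposited raw counts per gene symbol. The build was mm10, per the submitters' processing notes. Aligner, counting tool and annotation: not given in the sources used here. Left out were the authors' normalized table and its 16 further columns that matched no sample.

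All 40 libraries were fitted together, with 5 group means, in edgeR 4.0.16 (R 4.3.3) with its default low count filter, TMM factors and the robust quasi-likelihood test. Benjamini-Hochberg adjustment ran over all 15807 tested genes at 0.05. CPM used library totals (median 3765320), and log2 CPM a prior count of 2. Alternatives were DESeq2 1.42.0, limma-voom 3.58.1, other filters, scalings and samples, a replicate block, a muscle score covariate and leaving out each library. The code was tested on simulated data. Figures and summaries used Python 3.11.15. Gene coordinates came from GENCODE and promoters from RefSeq.

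The 39 genes and all other lists were chosen with earlier results of these data known. Members were given in full where they stood for a role, and the rest by range and count. Other genes named were the 15 most correlated with the muscle score, defining markers, and up to 3 genes per list with the smallest adjusted p in HFD against ND or tirzepatide against HFD. No 2 libraries of a group agreed within sampling noise (smallest chi-square per degree of freedom 3.99).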

Additional observations from a re-analysis of the deposited data

Results flagged for a closer look

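Among 55 sets of 8 values checked with Dixon's test (1 set per group for the summed share and for each of 10 genes), a single library stood far from the others of its group in 10. Chance alone marks about 1 in 20 such sets where values follow a normal distribution. The share was checked in percent, where its values were strongly skewed, so that rate does not hold for it. The genes were checked as log2 CPM. For the share of counts in the muscle genes, HFD library 4 had 0.169% with the next HFD library at 0.0213%, and diet switch library 6 had 0.673% with the next at 0.268%. The other 8 were single genes in HFD library 4 and repeat the same library, since these genes move together. As log2 CPM, Ckm stood at 6.37 there with the next library at 2.12, Mylpf at 6.24 with 2.17, Tnnt3 at 5.89 with 2.26 and Pvalb at 6.78 with 3.48. Myh4 stood at 7.85 with the next at 4.17, Ttn at 7.2 with 4.01, Atp2a1 at 4.17 with 1.11 and Myh2 at 2.24 with 0.12.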

How the results depend on the processing

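The number of muscle genes called, with 24 tested in the main fit, moved by over 1.5 times under 17 of 45 alternatives other than leaving out a library. In HFD against ND (3 called) it was 9 with DESeq2 and 0 with only the compared groups, limma-voom with sample quality weights (both changed at once, here and below) or the muscle score covariate. In tirzepatide against HFD (6) it was 14 with DESeq2 and 0 with the covariate. With limma-voom it was 5 there, but Myh1, Myh2, Atp2a1, Neb and Tcap lost their calls. In the diet switch against HFD (2) it was 9 with DESeq2 and 1 with limma-voom. With the covariate it was 2 other genes, Casq1 and Ttn, 1 higher and 1 lower. With no low count filter it was also 2, but Myh1 and Myl1 both lost their calls. The 2 genes called there were other genes, 1 higher and 1 lower. In tirzepatide against semaglutide (4) it was 20 with DESeq2, 1 with no low count filter, 7 with only the compared groups, 1 with limma-voom and 0 with the covariate. DESeq2 and the fit with no low count filter tested all 39 genes, and the stricter filter 25. Only 13, 11, 16, 14 and 15 were tested with only the compared groups, in the order of the report. Myh1 and Myh2 were not among the 13 in HFD against ND. With the replicate number as a block, the number called was 0, 15, 1 and 18 in these 4 comparisons. The replicate numbers did not pair the samples, however. Deviations of same-numbered libraries had a median correlation of 0.031 (-0.349 to 0.259), and 9 of 40 libraries were closest to their own number. The count stayed at 0 in semaglutide against HFD under all of these. Leaving out 1 library at a time gave 0 to 17, 0 to 0, 2 to 22, 0 to 21 and 0 to 8 in the order of the report. Over all genes the same omissions gave 541 to 778, 437 to 895, 2529 to 3442, 2849 to 4312 and 1087 to 1778, with 437 without HFD library 5. All-gene counts moved by over 1.5 times to 1289 with limma-voom in HFD against ND, to 1023 with DESeq2, 1013 with only the compared groups and 1263 with limma-voom in semaglutide against HFD, to 1145 without the 11 muscle-rich libraries in tirzepatide against HFD, and to 725 with the covariate and 225 without those libraries in tirzepatide against semaglutide. Leaving out the 11 libraries was chosen after seeing the data. Muscle gene calls from that fit are not read here, because the level of these genes picked the libraries. HFD library 4 is among the 11, so the muscle gene results given without it carry the same limit. Under the covariate, which contains these genes, fitted changes of 11, 9, 11, 10 and 13 of the 24 changed sign in the order of the report. Among the called genes and those given in full, outside semaglutide against HFD, changes went to 0.14 for Acta1, 0.097 for Mylpf and 0.67 for Pvalb in HFD against ND, to -0.84 for Acta1, -0.018 for Ckm, -0.21 for Mylpf and -0.75 for Pvalb in tirzepatide against HFD, to -0.65 for Acta1 and -0.79 for Pvalb in the diet switch against HFD, and to -0.058 for Ryr1 in tirzepatide against semaglutide. In semaglutide against HFD, where none was called, 10 also changed sign under limma-voom with weights, 2 under the block and 14 without HFD library 4. The cause of these moves was not tested. The mean share of the muscle genes ran over omissions from 0.131% to 0.230% in ND, 0.0164% to 0.0389% in HFD, 0.0229% to 0.0323% in semaglutide, 0.151% to 0.236% in tirzepatide and 0.0893% to 0.183% in the diet switch. The fast share of heavy chain counts was 100% to 100% in 4 groups and 99.9936% to 100% in tirzepatide. Counted over 13 fast and 6 slow genes it was 99.0%, 98.6%, 98.6%, 99.3% and 99.5%. With Spearman's rho 65 other genes exceeded 0.5, and with a score of the 13 fast genes 72, against 69. Low depth leaves the slow genes untested.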

Other observations

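Cryab and Gys1, both named in the muscle lists, changed while following muscle content hardly at all within groups. Both are also expressed outside skeletal muscle. Cryab, a small heat shock protein, had median levels of 278 CPM in ND, 309 CPM in HFD, 304 CPM in semaglutide, 113 CPM in tirzepatide and 128 CPM in the diet switch. It fell by 1.45 on the log2 scale in tirzepatide against HFD (SE 0.326, edgeR adjusted p = 0.00161) and by 1.48 in the diet switch against HFD (SE 0.326, adjusted p = 0.00120), with a within-group correlation with the muscle score of 0.10 over 40 libraries. Gys1, glycogen synthase, had medians of 70.5, 62.0, 63.1, 118 and 138 CPM in the same order and rose by 0.82 with tirzepatide (SE 0.180, adjusted p = 0.000968) and by 1.16 in the diet switch (SE 0.181, adjusted p = 8.0e-06), with a correlation of -0.03. All 8 tirzepatide libraries and all 8 diet switch libraries had more Gys1 than any HFD library. Gys1 was named for its small adjusted p, and the share of all tested genes this free of overlap was not counted for these comparisons.

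Myl4, the atrial and embryonic myosin light chain, went the other way from the fast genes. It had medians of 7.87 CPM in ND, 19.7 CPM in HFD, 15.7 CPM in semaglutide, 5.17 CPM in tirzepatide and 5.22 CPM in the diet switch. It was higher in HFD than in ND by 1.24 (SE 0.292, edgeR adjusted p = 0.00558) and lower in tirzepatide than in HFD (-1.80, SE 0.299, adjusted p = 2.35e-05), with a correlation of -0.18 with the muscle score. Phkg1, the muscle form of a phosphorylase kinase subunit, had medians of 13.4, 4.99, 4.56, 10.4 and 10.02 CPM in the same order. It fell by 1.72 in HFD against ND (SE 0.331, adjusted p = 0.000521), and its correlation was 0.38.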
